A study of Mus musculus with 36 samples.

Results

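The genes described here encode the proteins of the cytosolic ribosome. They were taken from the deposited count table by name, as every gene symbol of the form Rpl or Rps with a number and, where present, a single a, x or y, together with Rpsa and Rplp0 to Rplp2, leaving out symbols of pseudogenes and genes under 10 counts in all. The rule found 76 of the 55291 genes in the table, 46 of the large subunit and 30 of the small subunit. Measured levels other than that minimum played no part in the rule.

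Total RNA of mouse knees, all sampled at 24 h, was sequenced after depletion of ribosomal RNA. Of the 9 libraries, 3 came from sham knees, whose anterior cruciate ligament (ACL) was not injured. Another 3 came from ACL-injured knees of mice given 0.9% saline as vehicle, and 3 from ACL-injured knees of mice given an inhibitor of PKC, the protein kinase C enzymes that respond to lipid signals. Each group is described as biological replicates. The labels used here do not name the inhibitor, the strain, the sex or the age. The labels of these samples give knee joint tissue, whereas protocol text of other samples in the series speaks of joint cartilage for this set.

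The ribosome consists of a small subunit, which decodes the messenger RNA, and a large subunit, which joins amino acids. Each holds ribosomal RNA and a fixed set of proteins, nearly all present in a single copy, so the genes for these proteins are expressed in a coordinated way in most tissues. Many of their messenger RNAs begin with a run of pyrimidines, the 5′ terminal oligopyrimidine (TOP) motif, through which the mTOR kinase sets their translation. Translation of a transcript is not seen in these counts, which measure RNA abundance.

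The libraries held 124 to 202 M counts each, of which 91.2% to 98.2% lay on genes of 7SL RNA, which forms the signal recognition particle. The remaining 3.28 to 11.9 M counts per library held 40285 to 242783 counts of ribosomal protein genes, so that each of the 76 genes had at least 128 counts in every library. Inhibitor libraries 1 and 2 stood apart from the rest, with 91.5% and 91.2% of counts on 7SL genes against 96.7% to 98.2%, with 11.9 and 11.4 M other counts against 3.28 to 5.25 M, and with scaling factors (trimmed mean of M values) of 1.73 and 3.64 against 0.633 to 1.01. U3, a small nucleolar RNA that acts in processing of ribosomal RNA, held 53.6% of the counts outside 7SL genes in inhibitor library 1 and 9.14% to 38.9% in the others. Muscle markers, 16 genes, summed to 113924 normalised counts in inhibitor library 1 and to 6442 and 14132 in the other inhibitor libraries, against 22345 to 52828 in sham and 13314 to 21717 in vehicle. Cartilage markers, 12 genes, summed to 9683 to 28799 in sham, 13172 to 17863 in vehicle and 3518 to 7735 in inhibitor libraries, and the 10 osteoblast and osteocyte markers to 65761 to 112595, 62411 to 72264 and 20696 to 50543. No defining marker of these 3 lists was at 0 in any library. Cartilage and bone marker sums in the inhibitor libraries thus lay below all others. So did those of 8 B lineage markers (296 to 399, against 594 to 709 in sham and 494 to 533 in vehicle) and 5 keratinocyte markers (23.8 to 43.5, against 62.2 to 181 and 74.8 to 98.2, with 2 of the 5 at 0 in some library). The 10 neutrophil markers summed to 15964 to 21874 in sham, 8766 to 11149 in vehicle and 8652 to 18998 in inhibitor libraries. Inhibitor library 1 was highest also for 6 adipocyte markers (2635, against 447 to 1414 in the others, with 1 of the 6 at 0 in some library). It was highest for 5 endothelial markers as well (1946, against 266 to 656). The part of these differences in the ribosomal protein values was not tested. In bulk tissue, fewer cells of a type and less RNA per cell cannot be told apart.

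The sequences around the transcription start show the elements for which ribosomal protein genes are known, the ETS core and pyrimidine stretches. RefSeq promoter windows on GRCm38.p6 were matched to 56 of the 76 genes by symbol. The hexamer CTTCCG, which reads CGGAAG on the other strand and is the core bound by ETS factors such as GABP, stood on either strand within 250 bases before to 50 after the start in 69.6% of them, against 18.8% of all 27025 genes in that table. CTTTCC, a pyrimidine stretch, stood there in 51.8% against 29.3%, and the longer CTCTTTCC, which contains it, in 17.9% against 3.57%. AAGATGGC, the YY1 element, stood in 8.93% against 3.19%, and TATAAA, the TATA box, in 10.7% against 15.7%. On the sense strand and within 25 bases of the start, where a TOP motif would lie, CTTTCC was found in 17.9% against 2.92% of all genes. The shorter CTTT was found there in 42.9% against 21.8%. Other pyrimidine runs were not counted, so these shares are not the share of genes with a TOP motif. A match is a description of the letters and no site was measured.

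The windows below run 5′ to 3′ from 25 bases before to 25 after the RefSeq start, with CTTTCC or CTTCCG on either strand in capitals. The first 4 are examples that show the pyrimidine stretch or the ETS core near the start. The window of Rplp2, looked at with them and not printed, held neither CTTTCC nor CTTCCG on either strand. It did hold another pyrimidine run, tcttcctttc. The other 6 belong to the genes with some of the highest or lowest fold changes below.
Rps6 (chr4:86857343-86857392, minus strand): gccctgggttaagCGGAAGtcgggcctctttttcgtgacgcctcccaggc
Rpl28 (chr7:4792940-4792989, plus strand): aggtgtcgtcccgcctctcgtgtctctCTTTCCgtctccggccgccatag
Rpl38 (chr11:114668555-114668604, plus strand): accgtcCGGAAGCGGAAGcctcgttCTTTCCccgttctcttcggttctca
Rpl35 (chr2:39005107-39005156, minus strand): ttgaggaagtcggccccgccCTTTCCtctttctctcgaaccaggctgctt
Rps2 (chr17:24720038-24720087, plus strand): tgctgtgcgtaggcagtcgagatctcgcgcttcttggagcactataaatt
Rps3 (chr7:99483685-99483734, minus strand): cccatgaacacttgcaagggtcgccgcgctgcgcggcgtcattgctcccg
Rpl24 (chr16:55966250-55966299, plus strand): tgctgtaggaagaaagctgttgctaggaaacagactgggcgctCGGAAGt
Rpl37 (chr15:5116588-5116637, plus strand): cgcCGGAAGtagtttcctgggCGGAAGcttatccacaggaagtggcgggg
Rps19 (chr7:24884567-24884616, plus strand, the first of 3 starts): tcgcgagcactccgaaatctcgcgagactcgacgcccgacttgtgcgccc
Rps21 (chr2:180257354-180257403, plus strand, the first of 2 starts): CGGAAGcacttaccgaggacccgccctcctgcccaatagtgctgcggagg
Neither capitalised element fell in the windows of Rps2, Rps3 and Rps19, while Rpl37 held CGGAAG at 2 places. The genes shown for their fold changes thus did not share these letters in the windows printed. Rps29, with the highest fold change over vehicle, had no window to show.

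Summed over all 76 genes, ribosomal protein transcripts made up nearly the same amount in sham and vehicle libraries and a slightly larger one in inhibitor libraries. The sum, in counts normalised for library size by the trimmed mean of M values, was 78459, 81983 and 75971 in sham libraries 1 to 3. It was 89512, 74403 and 81775 in vehicle libraries and 85099, 94576 and 92087 in inhibitor libraries. All 3 inhibitor libraries lay above all 3 sham libraries, whereas vehicle library 1 lay above inhibitor library 1. Large subunit genes summed to 45220 ± 1213 in sham, 46424 ± 4377 in vehicle and 51134 ± 2990 in inhibitor libraries (SD, n = 3 each). Small subunit genes summed to 33584 ± 1809, 35473 ± 3181 and 39453 ± 1996 in the same order. Both subunits thus followed the same order of group means.

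**Figure D1:**
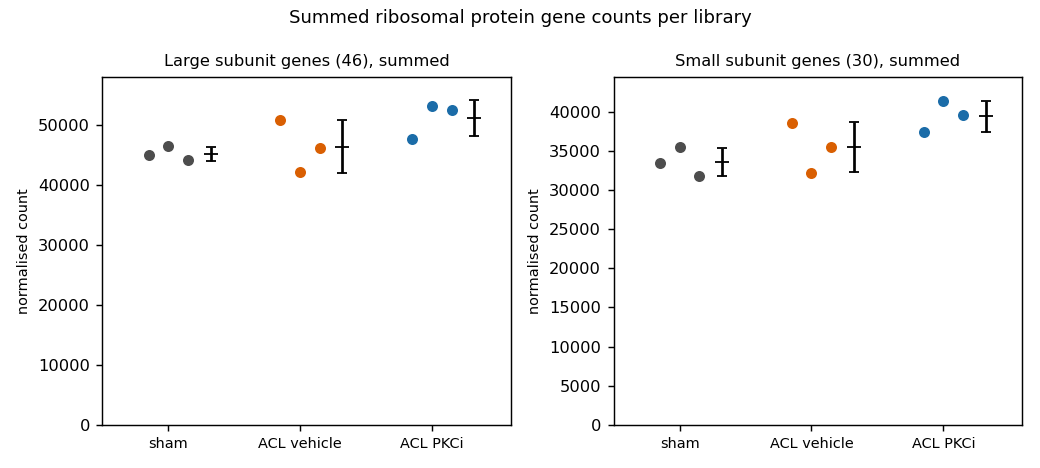
Summed normalised counts of the 46 large subunit genes (left) and 30 small subunit genes (right) in each library. Points are libraries of sham, ACL vehicle and ACL PKC inhibitor (PKCi) knees, and the bar beside each group is the mean ± SD of 3. The vehicle libraries spread from 42150 to 50898 for the large subunit and overlap both other groups.

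The share of counts gave a wider spread than the sums. Outside the 7SL genes, ribosomal protein genes held 1.29%, 1.19% and 1.07% of counts in sham libraries, 1.64%, 1.26% and 1.52% in vehicle libraries, and 0.950%, 2.14% and 1.98% in inhibitor libraries. U3 held 53.6% of the counts outside 7SL genes in inhibitor library 1 and 9.14% to 38.9% in the others. Inhibitor library 1 had the lowest share of the 9, although its normalised sum was above those of all sham libraries. That rank turned with the denominator. Among counts of tested genes outside 7SL and snoRNA genes, the share was 2.07%, 2.94% and 2.75% in inhibitor libraries 1 to 3, each above the 1.19% to 1.97% of sham libraries, and 2.34%, 1.84% and 2.43% in vehicle libraries. The gene Nemf had 1177819 counts in sham library 1 and 45 to 195 in each of the others. Shares without it were not computed, so the rank of sham library 1 in either share may depend on that gene. The balance of the subunits varied little. The mean log2 level of large minus small subunit genes was -0.23 ± 0.03 in sham, -0.23 ± 0.01 in vehicle and -0.22 ± 0.05 in inhibitor libraries.

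Injury was compared with sham first, to ask which ribosomal protein genes differed 24 h after ACL injury in vehicle-treated mice. All 76 genes passed the filter on low counts, as did 13823 genes in all. The genes lay close to their sham level. The median log2 fold change was 0.02, with 40 genes above and 36 below 0, beside a median of -0.02 over all genes tested. Of all genes, 48.1% were above 0. None of the 76 passed an adjusted p of 0.05 in edgeR's quasi-likelihood test (Benjamini-Hochberg over all 13823 genes), where 0.304% of all genes did. At an unadjusted p of 0.05 in edgeR, Rpl37 alone of the 76 passed, against 1145 of all 13823 genes. DESeq2 called 0 of the 76. The 95% interval of the fold change lay within 2-fold in either direction for all 76 genes, against 44.4% of all genes and 77.5% of the 1584 tested genes whose mean level was at or above that of the lowest ribosomal protein gene. It lay within 1.5-fold for 60 of the 76.

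Rpl37, which encodes a zinc-binding protein of the large subunit, had the lowest fold change after injury. Its normalised counts were 248, 325 and 292 in sham libraries and 214, 227 and 175 in vehicle libraries. Every vehicle library was thus below every sham library. The log2 fold change was -0.49 ± 0.19 (SE), with an unadjusted p of 0.0232 and an adjusted p of 0.453 in edgeR's quasi-likelihood test.

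Rps2, a small subunit protein near the messenger RNA entry, had the highest fold change after injury. It had 2800, 2930 and 2708 normalised counts in sham libraries and 4382, 2962 and 3812 in vehicle libraries. The groups did not overlap, but vehicle library 2 stood only just above sham library 2. The log2 fold change was 0.40 ± 0.22 (SE, edgeR adjusted p 0.661). Rpl12, a protein at the base of the stalk that binds elongation factors, had 1407, 1546 and 1492 in sham and 2251, 1628 and 1904 in vehicle libraries, a log2 fold change of 0.38 ± 0.21 (edgeR adjusted p 0.658).

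In all, 8 genes had every vehicle library above every sham library (Rpl6, Rpl11, Rpl12, Rpl24, Rps2, Rps3, Rps25 and Rpsa), and 2 had every vehicle library below (Rpl37 and Rps21). Among all genes tested, 8.2% were separated upwards and 8.76% downwards, so the upward count, 10.5% of the 76, was near the background and the downward count, 2.63%, under it. Rps3 was separated only with reads of a snoRNA gene inside it, Snord15b, included. Rps29 and Rps21 stood beside Rpl37 at the low end, with log2 fold changes of -0.29 and -0.23, followed by Rps4x, Rpl28 and Rpl21 at -0.19, -0.19 and -0.17. At the high end Rps3 had 0.32 (0.16 with the Snord15b reads subtracted), Rpl24 0.30, Rpl11 0.25 and Rpsa 0.23. None of these passed the threshold.

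**Figure D2:**
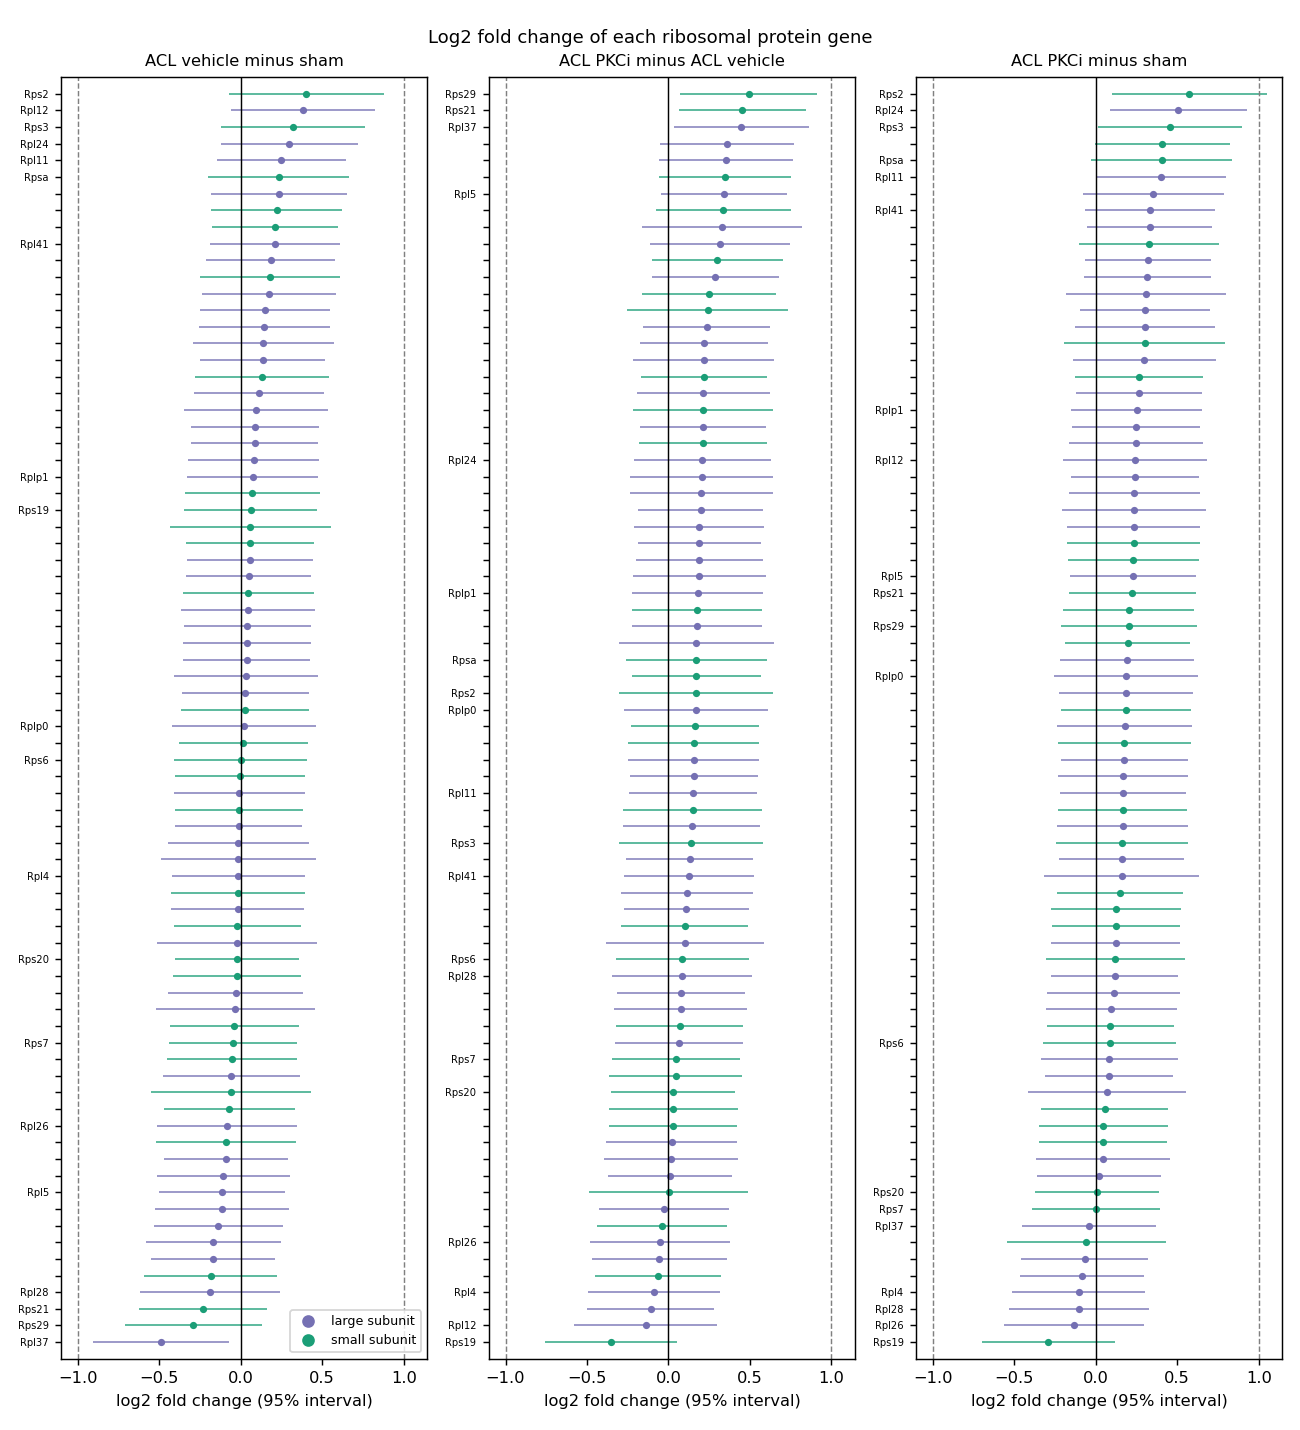
Log2 fold change of each of the 76 genes with its 95% interval (horizontal axis) in ACL vehicle minus sham (left), ACL PKCi minus ACL vehicle (middle) and ACL PKCi minus sham (right), ordered by value within each panel, with some of the genes described in the text labelled. Purple marks large and green small subunit genes, and dashed lines mark 2-fold in either direction. Every interval lies inside the dashed lines except that of Rps2 in the right panel, whose upper end is 1.04.

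Under the PKC inhibitor, most ribosomal protein genes stood slightly above their vehicle level and none passed the test. This comparison asks which genes differ when PKC is inhibited in the injured knee, and it shares the vehicle libraries with the comparison above. The median log2 fold change was 0.16, or 0.17 for the large and 0.16 for the small subunit genes. It was 0.04 over all genes and 0.08 over those at or above the lowest level of the 76. The fold change was above 0 for 67 of the 76 (88.2%), against 53.8% of all genes and 59.7% of those at such levels. Without vehicle library 2 the median of the 76 was 0.08 and without inhibitor library 2 it was 0.10, while without inhibitor library 1 it was 0.20. With the mean log2 level of the muscle markers as a covariate it was 0.17. Without inhibitor libraries 1 and 2 together it was 0.15, from a lone inhibitor library. The SD of the genes' median level between libraries of a group was 0.10 on the same scale.

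No ribosomal protein gene passed the adjusted p of 0.05 in edgeR, against 0.731% of all genes. At an unadjusted p of 0.05 in edgeR, 3 of the 76 passed (Rps29, Rps21 and Rpl37), against 1858 of all 13823 genes. DESeq2 called 0 of the 76. All 76 intervals lay within 2-fold, against 41.4% of all genes and 74.3% of those at or above the lowest level of these genes. For 45 of the 76 the interval lay within 1.5-fold. Every inhibitor library was above every vehicle library for 15 genes, 11 of the large and 4 of the small subunit, which is 19.7% of the 76 against 8.44% of all genes and 13.3% of those at or above the lowest level of these genes. The reverse held for 1 gene, Rps19, against 10.4% of all genes.

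Rps29, a zinc-binding protein of the small subunit head, had the highest fold change under the inhibitor. Its normalised counts were 558, 567 and 465 in vehicle libraries and 782, 744 and 711 in inhibitor libraries, with no overlap, and 584, 800 and 562 in sham libraries. The log2 fold change was 0.49 ± 0.19 (SE, unadjusted p 0.0225, edgeR adjusted p 0.272).

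Rps21, another small protein of the small subunit, had 505, 529 and 554 in vehicle and 746, 814 and 615 in inhibitor libraries. Sham libraries lay between, at 587, 657 and 620, and overlapped the inhibitor group only. Its log2 fold change was 0.46 ± 0.18 (edgeR adjusted p 0.277). Rpl37 had 272, 281 and 287 in inhibitor libraries, each above all vehicle libraries and within the sham range, with a log2 fold change of 0.45 ± 0.19 over vehicle (edgeR adjusted p 0.324).

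Rps19, the small subunit gene most often mutated in Diamond-Blackfan anaemia, stood lowest. It had 1439, 1294 and 1320 normalised counts in vehicle libraries and 939, 989 and 1247 in inhibitor libraries, the gene separated downwards. Its log2 fold change was -0.35 ± 0.19 (edgeR adjusted p 0.444). Sham libraries had 1185, 1362 and 1339, so inhibitor library 3 overlapped sham library 1. Rps19 lay at -0.29 against sham (edgeR adjusted p 0.457), the lowest of the 76 there as well, in a comparison that shares the inhibitor libraries.

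The remaining ends of the list were closer to 0. Rpl37a had a log2 fold change of 0.36 over vehicle, Rps4x 0.35 and Rpl5 0.34. At the low end Rpl12 had -0.14, Rpl23a -0.11, Rpl4 -0.09, Rps28 -0.06 and Rps25 -0.04.

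**Figure D3:**
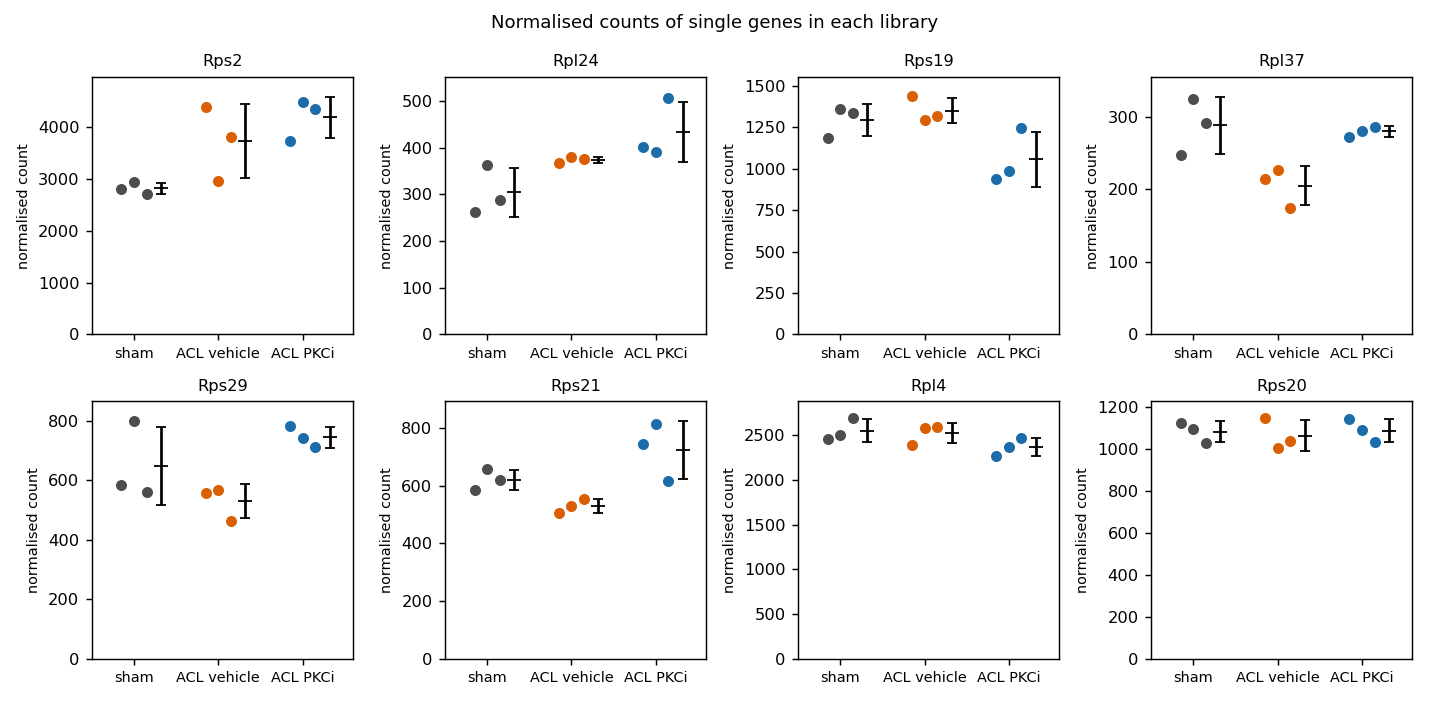
Normalised counts (vertical axis, from 0) of 8 ribosomal protein genes in each library, with mean ± SD of 3 beside each group. Rps2 and Rpl24 are lowest in sham, Rps19 is lowest in inhibitor libraries, Rpl37, Rps29 and Rps21 are lowest in vehicle libraries, and Rpl4 and Rps20 are nearly level.

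Inhibitor-treated injured knees were also set against sham knees, a comparison that joins injury and inhibitor and shares libraries with both others. Again 67 of the 76 genes (88.2%) were above 0, against 52.4% of all genes and 55.4% of those at or above the lowest level of the 76. The median log2 fold change was 0.18 (large 0.19, small 0.17), beside 0.03 over all genes and 0.07 over those at such levels. None of the 76 passed the adjusted p of 0.05 in edgeR, where 3.95% of all genes did. At an unadjusted p of 0.05 in edgeR, 4 of the 76 passed (Rps2, Rps3, Rpl11 and Rpl24), against 2482 of all 13823 genes. With snoRNA reads subtracted from their hosts, 3 of the 76 passed. Without inhibitor libraries 1 and 2 the median was 0.20. DESeq2 called 1, Rps2, at a log2 fold change of 0.59 and an adjusted p of 0.0489. In this comparison 75 of 76 intervals lay within 2-fold, against 37.7% of all genes and 64.3% of those at or above the lowest level of these genes, and 37 lay within 1.5-fold.

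Every inhibitor library exceeded every sham library for 25 of the 76 genes, 19 of the large and 6 of the small subunit, which is 32.9% against 11.2% of all genes and 17.9% of those at or above the lowest level of these genes. The 25 include Rps3, which overlapped once Snord15b reads were subtracted. None was separated downwards, against 11.6% of all genes. These genes are scaled together in each library, so the counts over them are not independent.

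Rps2 had 3731, 4473 and 4350 normalised counts in inhibitor libraries, each above all sham libraries. The log2 fold change over sham was 0.57 ± 0.22 (SE), with a 95% interval of 0.10 to 1.04 and an edgeR adjusted p of 0.176. Its named pseudogenes held 24.1% as many counts as Rps2 itself, and how reads split between them is uncertain. Rpl24, a large subunit protein that reaches to the small subunit, had 262, 363 and 289 in sham, 367, 380 and 375 in vehicle and 402, 391 and 508 in inhibitor libraries. The 3 groups did not overlap at any point, and the log2 fold change of inhibitor over sham was 0.51 ± 0.20 (edgeR adjusted p 0.173). An overlapping gene model, Gm28037, held 3425 counts over the 9 libraries beside 3401 of Rpl24, and reads of the pair cannot be told apart.

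Other genes at the upper end against sham were Rps3 at 0.46 (0.24 without Snord15b reads), Rpsa and Rpl11 at 0.40 each and Rpl18 at 0.35, all with every inhibitor library above every sham library as counted. At the lower end Rpl26, Rpl28, Rpl4 and Rps27 stood at -0.14, -0.11, -0.10 and -0.06, and Rps7 at 0.00, and for these 5 the groups overlapped.

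The stalk proteins that recruit translation factors were level or slightly higher under the inhibitor. Rplp0, the base of the stalk, had 2324, 2377 and 2156 normalised counts in sham, 2762, 1990 and 2202 in vehicle and 2633, 2888 and 2288 in inhibitor libraries, with overlap between all groups. Rplp1 had 1237, 1450 and 1439 in sham, 1569, 1262 and 1505 in vehicle and 1679, 1650 and 1578 in inhibitor libraries. For Rplp1 the inhibitor libraries were above all others, and the log2 fold change was 0.18 over vehicle and 0.25 over sham, short of the threshold (edgeR adjusted p 0.711 and 0.519). Rplp2 had 827 ± 55.4 in vehicle and 960 ± 171 in inhibitor libraries, which overlapped.

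Rpl5 and Rpl11 form a particle with the 5S ribosomal RNA that also binds Mdm2, the inhibitor of p53, when assembly fails. Rpl5 had 1065, 1122 and 1028 in sham, 1063, 872 and 1035 in vehicle and 1196, 1286 and 1285 in inhibitor libraries. Inhibitor libraries were above all others (log2 fold change 0.34 ± 0.18 over vehicle, edgeR adjusted p 0.429). Rpl11 had 801, 771 and 685 in sham, 955, 846 and 881 in vehicle and 861, 1049 and 1075 in inhibitor libraries. For Rpl11 the sham libraries were below all others. The partners thus differed in which group stood apart, without a test of that difference.

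Among other large subunit genes, Rpl3, which lies near the peptidyl transferase centre, had group means of 1410 ± 50.9, 1445 ± 76.6 and 1582 ± 123 in sham, vehicle and inhibitor libraries. Rpl10, which joins the large subunit late in its maturation, had 1647 ± 147, 1698 ± 85.0 and 1936 ± 222. Rpl13a, known also for a regulatory role outside the ribosome, had 2267 ± 160, 2215 ± 580 and 2374 ± 378. Rpl22, which has a close paralogue in Rpl22l1, had 418 ± 63.6, 416 ± 42.5 and 470 ± 19.2. Rpl38, whose loss in the Tail-short mouse disturbs skeletal patterning, had 786 ± 4.48, 872 ± 112 and 855 ± 96.2. Rpl41, the smallest ribosomal protein, had 1469 ± 96.7, 1699 ± 146 and 1853 ± 121. For each of these 6 genes no comparison passed the threshold, and the largest log2 fold change was 0.34, for Rpl41 in inhibitor over sham.

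Small subunit genes with known roles also passed no threshold. Rps6, a substrate of S6 kinase downstream of mTOR, had 1567, 1523 and 1556 in sham, 1806, 1311 and 1528 in vehicle and 1552, 1706 and 1671 in inhibitor libraries. The groups overlapped and the log2 fold change was 0.00 after injury and 0.09 under the inhibitor. Rpsa, also known as a laminin receptor, had 1961 ± 63.9 in sham, 2305 ± 220 in vehicle and 2595 ± 438 in inhibitor libraries, with sham below all others. Rps4x, encoded on the X chromosome, had 1660 ± 202, 1459 ± 121 and 1854 ± 52.4. Rps14, the gene lost in the human 5q- syndrome, had 1857 ± 312, 1934 ± 373 and 2286 ± 480. Rps26, which lines the messenger RNA exit, had 728 ± 33.6, 717 ± 69.1 and 833 ± 77.5. Rps27a, made as a fusion with ubiquitin, had 1371 ± 138, 1553 ± 218 and 1721 ± 221. None of these passed the threshold in any comparison.

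Rps3, a small subunit protein at the messenger RNA entry, shares reads with a gene inside it. The snoRNA gene Snord15b (mm10 chr7:99479563-99479707, minus strand) overlaps an Rps3 exon, and reads over it were counted for both. Rps3 as counted had 2279, 2480 and 1925 in sham, 2800, 2697 and 2839 in vehicle and 3545, 2853 and 2778 in inhibitor libraries. Snord15b had 79.1, 435 and 243 in sham, 203, 843 and 663 in vehicle and 1637, 284 and 252 in inhibitor libraries, which is 3.47% of the Rps3 count in sham library 1 and 46.2% in inhibitor library 1.

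With the Snord15b counts subtracted, Rps3 had 2200, 2045 and 1682 in sham, 2597, 1854 and 2176 in vehicle and 1908, 2569 and 2526 in inhibitor libraries. The groups then overlapped. The log2 fold change of Rps3 fell from 0.32 to 0.16 for injury and from 0.46 to 0.24 for inhibitor over sham. Among the snoRNA genes subtracted, none took as large a share of another ribosomal protein gene. Overlapping models of other names, as at Rpl13a, Rpl19 and Rps10, were not subtracted. Snora70 equalled 6.86% to 20.8% of the counts of its host Rpl10, and Snora52 at most 5.90% of those of Rplp2. In all, 32 snoRNA genes lay within 23 ribosomal protein genes, 18 of them over an exon, and none of the 8 that passed the filter passed the adjusted p of 0.05 in edgeR or DESeq2, with 0, 1 and 0 at an unadjusted p of 0.05 in the 3 comparisons.

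**Figure D4:**
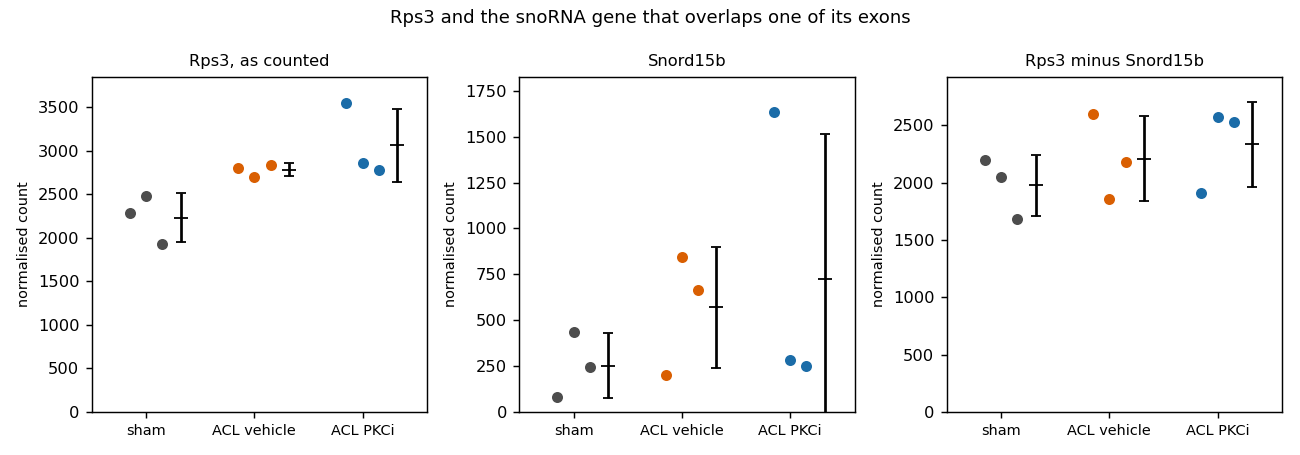
Normalised counts (vertical axis, from 0) of Rps3 as counted, of Snord15b, and of Rps3 after subtraction, in each library with mean ± SD of 3 beside each group. In inhibitor library 1, Rps3 is highest of the 9 as counted, at 3545, and among the lower values after subtraction, at 1908.

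The spread of each gene between libraries was described by the SD of its log2 level, with no test. The SD of the log2 level over all 9 libraries had a median of 0.17 for the 76 genes, against 0.31 for the 1584 tested genes at or above their lowest level and 0.45 for all genes. Rps20 and Rpl4 had the lowest SD of the 76, at 0.07 each. Rps20 had 1122, 1096 and 1028 in sham, 1148, 1006 and 1037 in vehicle and 1140, 1088 and 1031 in inhibitor libraries. Rpl4 ranged from 2273 to 2695 over the 9 libraries. At the other end Rpl23, Rps2, Rps14 and Rpl37 had SDs of 0.30, 0.30, 0.28 and 0.27. Rpl23 ranged from 952 to 1426 over the sham and vehicle libraries and from 1139 to 1732 over the inhibitor libraries. Across the 76 genes, the correlation of log2 levels between any pair of libraries was 0.94 to 0.98, a description over genes that share scale and length.

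Levels between genes were compared per kilobase of exon, in normalised counts. They ranged over 20.6-fold in the large subunit, from Rpl35a, Rpl22 and Rpl37 at 145, 149 and 153 to Rplp0, Rpl38 and Rplp1 at 1448, 1545 and 2977. In the small subunit they ranged over 23.8-fold, from Rps15a, Rps24 and Rps25 at 81.9, 156 and 245 to Rps4x, Rps15 and Rps2 at 1016, 1491 and 1952. The exon length is the union of all annotated transcript models, 6270 bases for Rps15a and 6256 for Rps24 against 499 for Rplp1, so genes with long minor models read lower per kilobase. In plain normalised counts the range was 13.8-fold. Across the 76 genes the Spearman correlation of the fold change with exon length was 0.13, 0.08 and 0.15 in the 3 comparisons, and that with level was 0.25, 0.10 and 0.38. These are descriptions across genes.

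Ribosomal protein genes have many processed pseudogenes, and reads that fit several places were counted in full at each. The table named 316 pseudogenes of 61 of the 76 genes, of which 204 had counts and 92 passed the filter. In each library they summed to 7.85% to 9.55% of the counts of the 76 genes. Their counts equalled 90.7% of those of the parent for Rps12, 73.0% for Rpl15 and 61.9% for Rps6, against a median of 3.36%. How many reads came from either copy is uncertain. Of the 92 pseudogenes tested, 0, 0 and 1 passed the adjusted p of 0.05 in edgeR in the 3 comparisons, in the order above, 0, 0 and 4 in DESeq2, and 6, 6 and 10 an unadjusted p of 0.05. The one in edgeR was Rps2-ps6, at a log2 fold change of 0.98 in inhibitor over sham (edgeR adjusted p 0.0314). Over all 13823 genes, 1145, 1858 and 2482 passed the unadjusted p of 0.05 in edgeR, and 0.304%, 0.731% and 3.95% the adjusted p. Overlapping models also shared reads at Rpl13a, Rpl19 and Rps10. Gm45713 had 19970 counts and Mir5121 5899 beside 20586 of Rpl13a. Gm27597 had 5535 beside 10749 of Rpl19, and Gm49804 had 9373 beside 8417 of Rps10.

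Proteins of the ribosome that fall outside the naming rule gave 11 further genes, 8 of which were tested. None passed after injury or over vehicle in edgeR (1 each at an unadjusted p of 0.05), and Rpl36al rose in inhibitor over sham. Rpl36al, a paralogue of Rpl36a, had 199, 210 and 170 in sham, 284, 284 and 259 in vehicle and 719, 316 and 300 in inhibitor libraries. Its log2 fold change was 1.20 ± 0.29 (edgeR adjusted p 0.0349), with inhibitor library 1 far above the others. Without that library it was 0.68 and the call was lost (edgeR adjusted p 0.0518), as it was without any single sham library (1.12 to 1.26, edgeR adjusted p 0.0863 to 0.136) or any vehicle library (edgeR adjusted p 0.0512 to 0.0611). Fau and Rps3a1, small subunit proteins, had log2 fold changes of 0.25 and 0.28 there, short of the threshold. Rpl3l, the striated muscle form of Rpl3, had 46.5, 53.8 and 124 in sham, 28.2, 15.5 and 23.2 in vehicle and 135, 12.5 and 7.79 in inhibitor libraries. It was highest in inhibitor library 1, the library with the highest muscle marker sum. Rpl10l, a testis form of Rpl10, had no count in any library.

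The other parts of the translation machinery put these values in context. Over all 13823 genes, 1145, 1858 and 2482 passed an unadjusted p of 0.05 in edgeR in the 3 comparisons, in the order above. The adjusted p of 0.05 in edgeR was passed by 0.304%, 0.731% and 3.95% of them. Rack1, a small subunit protein that binds activated PKC, had 1422 ± 60.8 in sham, 1475 ± 169 in vehicle and 1596 ± 184 in inhibitor libraries, with overlap and no call. With it, 19 genes of elongation factors and other TOP messenger RNAs were tested and none passed in any comparison in edgeR or DESeq2, with 0, 0 and 1 at an unadjusted p of 0.05. Their median log2 fold changes were 0.00 for injury, 0.24 for inhibitor over vehicle and 0.23 for inhibitor over sham. Eef1a1, the main elongation factor, had 12132 ± 1051, 11191 ± 1241 and 15047 ± 579 in sham, vehicle and inhibitor libraries, with the inhibitor libraries above all others (0.43 over vehicle, edgeR adjusted p 0.516).

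Genes that build ribosomes had other medians than the ribosomal protein genes. Of 27 biogenesis genes tested, 26 (96.3%) were above 0 after injury, against 48.1% of all genes, with a median of 0.51. Of the 27, 17 (63.0%) had every vehicle library above every sham library, against 8.2% of all genes. None passed the adjusted p of 0.05 in edgeR or DESeq2. At an unadjusted p of 0.05 in edgeR 7 passed, against 1145 of all 13823 genes. Over vehicle the inhibitor median was -0.27, with 21 of 27 below 0, against 6382 of all 13823 genes. Nop56, a core protein of the snoRNA particles that methylate ribosomal RNA, fell from 238, 260 and 292 in vehicle to 96.8, 123 and 127 in inhibitor libraries. Its log2 fold change was -1.19 ± 0.22 (edgeR adjusted p 0.0248), the call among the 27 in edgeR, where DESeq2 called Nop56 and Ubtf (DESeq2 adjusted p 0.000605 and 0.0271). Against sham, Nop56 (-1.11, edgeR adjusted p 0.0124) and Ubtf, the factor that opens ribosomal DNA for transcription (-0.69, edgeR adjusted p 0.046), fell. The Nop56 call over vehicle was lost without any 1 vehicle library (edgeR adjusted p 0.050 to 0.114), and that against sham without sham library 3 (edgeR adjusted p 0.0603). The Ubtf call was lost without any 1 of the 9 libraries (edgeR adjusted p 0.0647 to 0.137). The difference between these genes and the ribosomal protein genes was not tested.

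Of 24 initiation factors, 1 passed in inhibitor over sham in edgeR, where 3.95% of all genes did. In that comparison DESeq2 called Eif6 and Eif4a1, the helicase that unwinds the messenger RNA leader (0.75, DESeq2 adjusted p 0.0181). Eif6, which keeps the large subunit from joining the small one, rose there from 80.2, 65.6 and 71.7 in sham to 107, 184 and 148 in inhibitor libraries (log2 fold change 1.02 ± 0.24, edgeR adjusted p 0.0313). Vehicle libraries had 156, 141 and 180, all above sham (1.13, edgeR adjusted p 0.0772), which DESeq2 called (DESeq2 adjusted p 0.0154). Of 17 genes of mTOR signalling and TOP control, 2 passed in inhibitor over sham in edgeR and in DESeq2, and DESeq2 also called Rps6kb2 over vehicle (DESeq2 adjusted p 0.0387, edgeR adjusted p 0.0984). Ddit4, a stress-induced inhibitor of mTOR, rose by 1.41 (edgeR adjusted p 0.0288), and Rps6kb2, an S6 kinase, fell by 1.23 on the log2 scale (edgeR adjusted p 0.0349). These 3 calls were lost when some single libraries were left out, in each case any of the 3 sham libraries, with edgeR adjusted p up to 0.128 for Eif6, 0.133 for Ddit4 and 0.133 for Rps6kb2 over all single libraries. Eif6 was lost also without vehicle library 1 or 3 or inhibitor library 2 or 3, and Rps6kb2 without vehicle library 2 or 3 or inhibitor library 2 or 3. None of the 78 mitochondrial ribosomal protein genes passed in any comparison in edgeR or DESeq2, with medians of 0.12, 0.13 and 0.23 and with 1, 1 and 2 at an unadjusted p of 0.05.

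**Figure D5:**
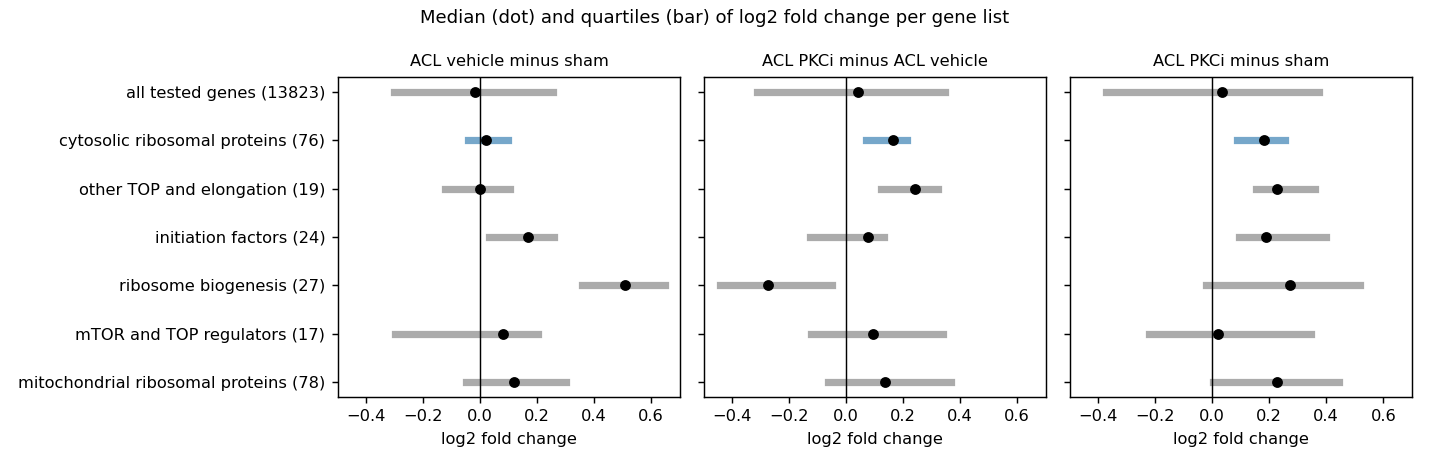
Median log2 fold change (dot) and range from the lower to the upper quartile (bar) over the tested genes of each list, whose number stands in parentheses, in the 3 comparisons. Ribosomal protein genes have narrow bars near 0 in the left panel and medians of 0.16 and 0.18 in the other panels, and biogenesis genes have medians of 0.51, -0.27 and 0.27.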

How the data were processed

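The deposited table of these 9 libraries holds raw read counts per gene symbol. Per the file headers, the authors ran featureCounts 2.0.1 on read pairs over GENCODE M25 exons, reverse strand. A read that mapped to several places, or lay over several genes, added a full count to each. HISAT2 and mm10 are named in the submitters' processing notes, the aligner without a version. Columns were given to samples by name, since their order differs from that of the recorded command. A further 27 columns, whose codes match no sample label, were not used. The 76 genes, the other gene lists and the tests were chosen with earlier results of these data known.

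Counts were filtered with filterByExpr, scaled by TMM (the trimmed mean of M values) and fitted together with edgeR 4.0.16: a robust quasi-likelihood F test, two-sided, with a mean per group and Benjamini-Hochberg adjustment over 13823 genes at a threshold of 0.05. Every standard error and 95% interval comes from that fit. Normalised counts are scaled to the mean effective library size. Log2 levels used a prior count of 2. R 4.3.3 with DESeq2 1.42.0, limma 3.58.1 and GenomicRanges 1.54.1 and Python 3.11.15 with numpy 2.4.6, pandas 2.3.3 and matplotlib 3.10.9 were also used. The fit was run on simulated counts with the same spread set for every gene and the same composition in every library apart from the changed genes. That run does not show how the fit behaves with libraries that differ as these do. Beyond the word biological, no source says how replicates were made, so whether each library is a separate mouse is not known. The p-values set group differences against the spread between these libraries only. Pairs of libraries were checked and none held the same counts. Named genes are those with fixed roles, the 3 highest and lowest fold changes per subunit and comparison, the 3 highest and lowest levels per kilobase per subunit, and in other lists those past the threshold and up to 3 more by level. The genes whose groups did not overlap, the least and most variable genes, and Rpl3l, Rpl10l, Rpl35 and genes with shared reads were added after their values were seen. Alternatives were other scalings, filters, tools and samples, a replicate block, a muscle covariate, and pseudogene or snoRNA counts added or subtracted. Values of a few single genes are not reported here.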

Additional observations from a re-analysis of the deposited data

How the results depend on the processing

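Injury against sham and inhibitor against vehicle called 0 ribosomal protein genes under all 21 alternatives, and inhibitor against sham called 1 (Rps2) with DESeq2 and 0 otherwise. Their median log2 fold change ran from -0.01 to 0.09 for injury, 0.08 to 0.22 for inhibitor over vehicle and 0.13 to 0.23 for inhibitor over sham. Calls over all genes varied more, at 1 to 301 beside 42, 0 to 554 beside 101 and 141 to 1201 beside 546. Without the filter the median of all genes over vehicle was 0.11 instead of 0.04. Leaving out inhibitor libraries 1 and 2 together moved the large minus small subunit difference against sham from 0.017 to 0.0713.

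Among the ribosomal protein genes named at either end, signs turned for Rps25, Rps7, Rps27, Rpl26 and Rpl28, and the cause was not tested. For Rps25 over vehicle the log2 fold change was 0.013 without the filter and 0.15 without inhibitor libraries 1 and 2, and -0.143 to 0.0903 with single libraries left out. For Rps7 against sham it was 0.012 with DESeq2, 0.050 without the filter, 0.00279 with TMM (trimmed mean of M values) factors that leave out these genes, 0.00230 with upper-quartile scaling, 0.00338 with pseudogenes added, and -0.0747 to 0.0917 with single libraries left out. For Rps27 it was 0.0283 with the muscle covariate and -0.233 to 0.125, for Rpl26 -0.289 to 0.0328, both with single libraries left out, and for Rpl28 0.11 without inhibitor libraries 1 and 2.

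The share of counts depended on the denominator. Of all counts it was 0.0344% in sham, 0.0349% in vehicle and 0.102% in inhibitor libraries, and of tested genes outside 7SL and snoRNA genes 1.55%, 2.20% and 2.59%. Without sham library 1, which held 1177819 counts of Nemf, the sham mean of the latter share was 1.58%. The share of that library without Nemf alone was not computed. Of all counts the inhibitor libraries had 0.0810%, 0.189% and 0.0351%, so library 3 lay within the sham range of 0.0324% to 0.0360%, and without inhibitor library 2 the mean was 0.0580%.

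With the replicate number as a block, 0 of the 76 genes were called, with medians of 0.02, 0.16 and 0.18, and Rps7 stood at 0.00259. Among genes of the other lists called against sham, Eif6 (edgeR adjusted p 0.0592), Rps6kb2 (0.0550) and Ubtf (0.0757) were not called with the block. Deviations of same-numbered libraries correlated at -0.24 to 0.07, and 3 of 9 pairs correlated best with their own number. With 3 libraries per group, these values cannot show whether the numbers pair the samples. Depth allowed at least 128 counts per gene and library.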
